A study of Mus musculus with 6 samples.

Results

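The genes described here are the immunoglobulin (Ig) and T cell receptor (TR) segment genes, the germline pieces from which lymphocytes assemble their antigen receptors, as they were counted in RNA of sorted melanoma macrophages. They were taken as every gene whose biotype in the deposited tables starts with IG_ or TR_ and does not name a pseudogene, if its counts in the 6 libraries came to 10 or more. This gave 223 members of 298 such genes, in tables of 23424 genes. Of the 75 left out, 4 had 0 counts in every library. The members are 101 Ig genes (11 constant, 90 variable) and 122 TR genes (8 constant, 114 variable), where variable stands for V, D and J segments. At the limit itself, Ighv5-16, Igkj4, Traj45, Traj6 and Trav3-4 entered with 10 counts each, and Ighv1-59, Igkv1-88, Igkv14-100, Igkv3-12, Trav6-5, Trav7d-4, Trav7n-6 and Trdj1 stayed out with 9.

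The study used bulk RNA-seq to compare tumor-associated macrophages (TAMs) with high and low surface F4/80, a macrophage protein encoded by Adgre1. YUMM1.7 cells, a mouse melanoma line with mutant BRAF and no Cdkn2, were grown in the skin of untreated WT C57Bl/6J females that were 8 weeks old at tumor induction. The 2 subsets were sorted on day 21 in 3 separate experiments. Each library was made from 10 tumors pooled, so that each subset has 3 libraries and none stands for a single animal. The replicate number was taken to mark the experiment, and sets of 3 values follow the order of replicates 1, 2 and 3. Replicate pair here means the F4/80high and the F4/80low library of 1 replicate number. The sort took live CD45+ CD11b+ cells, per the study's methods from the lineage-negative fraction, and the antibody panel names B220, CD3e and NK1.1, the usual surface markers of B, T and NK cells.

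Ig and TR genes share a build. During lymphocyte development the RAG recombinase joins 1 V segment to 1 J segment, with a D segment between them in the heavy, beta and delta chains, and the joined exon is spliced to a constant segment. In B cells the heavy-chain constant segment can later be exchanged by class switching, from Ighm and Ighd to an Ighg or Igha gene. Unrearranged J and D segments and constant segments can also be transcribed from their germline promoters, so that a read on a segment does not by itself show a rearranged receptor. In bulk RNA, fewer cells of a type and less RNA per cell cannot be told apart.

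The total counts ran from 16045281 to 43604373 per library, of which the segment genes held 0.132%, 0.0402% and 0.012% in F4/80high against 0.0648%, 0.0882% and 0.00599% in F4/80low. The study draws replicates 1 and 2 as 1 batch and replicate 3 as another. The replicate 3 libraries stood apart: they were the smallest, 17.1% and 16.1% of their reads fell on 3 features that took 0.378% to 0.609% elsewhere, and 151 of the 223 members had 0 counts in both of them. Levels below are CPM, counts scaled by the total of the library and its TMM factor. On that scale a count of 3, the limit that a count of 0 allows, is 0.0579 to 0.0737 CPM in replicates 1 and 2 and 0.293 and 0.302 CPM in replicate 3.

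No segment gene passed the main test between the subsets. A call needed a log2 fold change beyond 1 in either direction with an adjusted p below 0.05, and edgeR's quasi-likelihood test with a batch term called 0 of the 223 members, where the share called among all 20039 genes tested was 0.0%. Before adjustment 4 members had a p below 0.05 (1.79%, against 6.59% of all genes). Of these Ighg1, Ighv7-1 and Igkv4-61 were lower in F4/80high, as were 3.8% of all genes at that p, and Tcrg-C4 was higher, as were 2.79%. With the replicate number as a block, edgeR again called 0 members, against 0.135% of all genes, and 3 had an unadjusted p under 0.05 (8.15% of all genes). DESeq2 called 1 member, Ighg1, with the batch term (0.813% of all genes, 0.559% in its direction) and with the block (1.81% of all genes, 1.11% in its direction). It gave no adjusted p for many members with few counts, among them Ighg3, Tcrg-C3 and the heavy-chain V members. Those could not be called by DESeq2. The 3 libraries of each subset are few, and an exact permutation test of a single value could not give a p under 0.1.

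The direction of the members differed between replicate pairs. In replicate pair 1, 187 of 223 members were higher in F4/80high (50.9% of all genes) and 35 were lower (47.5% of all genes). In pair 2, 54 were higher (45.5% of all genes) and 166 lower (51.0% of all genes). In pair 3, 57 were higher (46.9% of all genes), 15 were lower (43.9% of all genes) and the other 151 had no counts. Only 12 members were higher in F4/80high in all 3 pairs (14.7% of all genes) and 1 was lower in all 3 (14.3% of all genes). The 12 were all TR genes, and the 1 was Ighg1. The 151 members without counts in pair 3 could be in neither group. They were 88 of the Ig and 63 of the TR members, against 1846 of the 20039 genes tested. These counts of 3 pairs therefore do not compare Ig with TR, or members with all genes, on equal terms. A positive fitted log2 fold change was found for 142 members, against 50.9% of all genes. The median fitted log2 fold change of the members was 0.53 beside 0.01 over all genes, -0.40 for the Ig members and 1.10 for the TR members. With the replicate block the medians were 0.26 for all members, -0.42 for Ig and 0.76 for TR. Single libraries moved them: without F4/80high replicate 1 the median over the members was -0.65 (-1.67 for Ig, 0.04 for TR), without F4/80high replicate 2 it was 1.12 (-0.23 for Ig, 1.54 for TR), and without F4/80low replicate 2 it was 0.98 (0.49 for Ig, 1.35 for TR). These medians are over the 183, 206 and 200 members that still had 10 counts.

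**Figure D1:**
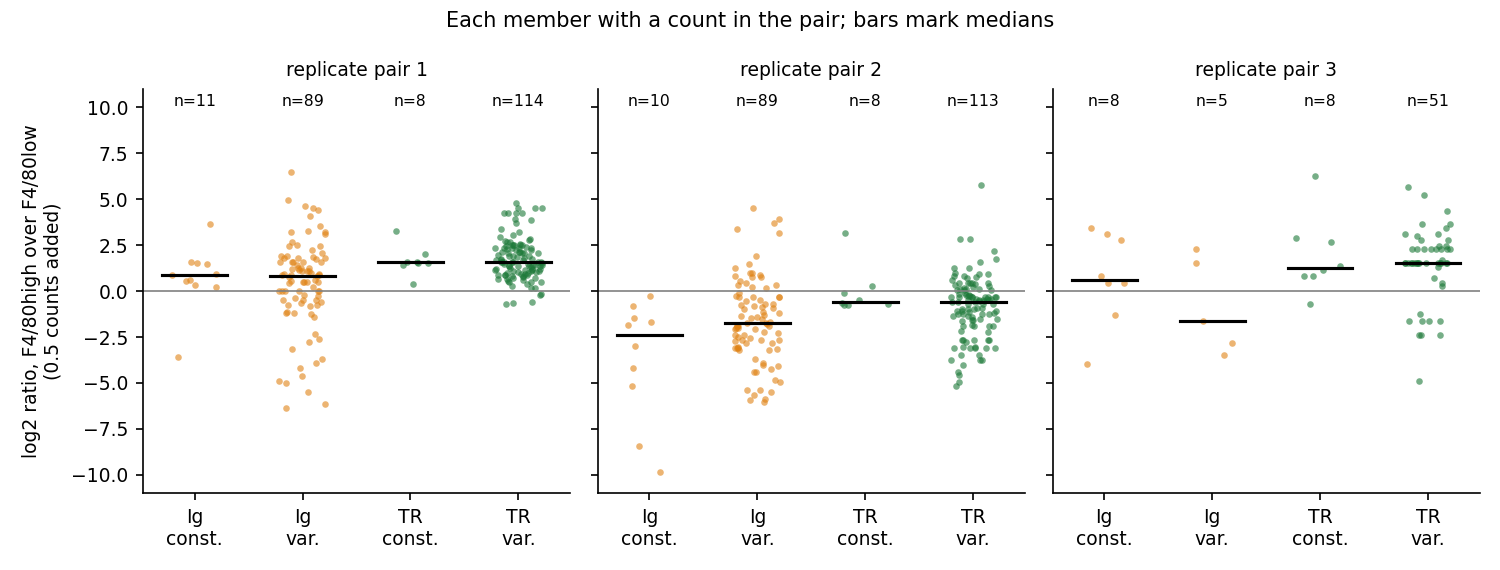
Log2 ratio of F4/80high over F4/80low for each segment gene with a count in the pair, in the 3 replicate pairs (panels), by class, with 0.5 counts added and black bars at the medians. TR variable members have a median of 1.60 in pair 1, -0.60 in pair 2 and 1.54 in pair 3, and only 5 of the 90 Ig variable members have a count in pair 3.

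Summed by class, the constant segments held 87.6% of the 110589 counts on segment genes. The 8 TR constant segments summed to 460, 139 and 122 CPM in F4/80high against 158, 224 and 55.2 CPM in F4/80low, so that the log2 ratio was 1.54, -0.69 and 1.15 in the 3 pairs. The 114 TR variable segments went the same way as the constant ones in each pair, with 103, 28.6 and 21.3 CPM in F4/80high against 37.0, 43.6 and 6.33 CPM in F4/80low (log2 ratios 1.47, -0.61 and 1.74). The subsets overlapped in both classes, since F4/80low replicate 2 lay above F4/80high replicates 2 and 3.

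The 11 Ig constant segments summed to 390, 158 and 43.8 CPM in F4/80high against 301, 384 and 35.1 CPM in F4/80low, with log2 ratios of 0.37, -1.28 and 0.32. The 90 Ig variable segments gave 31.1, 12.8 and 0.293 CPM in F4/80high against 22.8, 38.2 and 0.905 CPM in F4/80low, with log2 ratios of 0.45, -1.58 and -1.48, the last from 3 and 9 counts. The mean log2 ratio over the pairs was -0.20 ± 0.94 for Ig constant, -0.87 ± 1.15 for Ig variable, 0.67 ± 1.19 for TR constant and 0.87 ± 1.29 for TR variable (SD, n = 3 pairs each), in each case within 1 SD of 0.

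**Figure D2:**
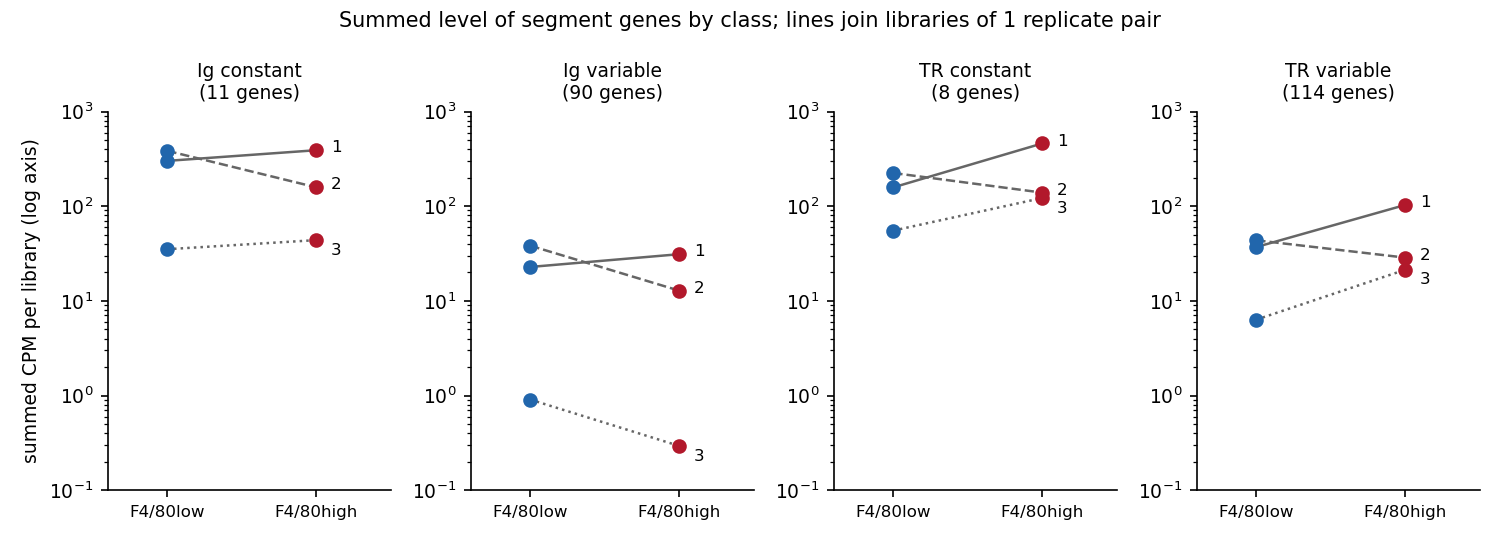
Summed CPM of the segment genes of each class in each library (log axis), F4/80low at left and F4/80high at right, with lines joining the libraries of 1 replicate pair. In every class pair 2 falls from F4/80low to F4/80high and pair 1 goes up, and the replicate 3 libraries hold the lowest values of each subset.

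Pooled over the loci, the proportion of variable to constant reads was lower in batch 2 than in batch 1 in both subsets. There were 7.98 and 8.08 Ig variable counts per 100 Ig constant counts in batch 1 of F4/80high and 7.56 and 9.93 in batch 1 of F4/80low, but 0.668 in F4/80high and 2.58 in F4/80low replicate 3. For TR genes the values were 22.3, 20.5 and 17.4 in F4/80high against 23.4, 19.5 and 11.5 in F4/80low. Single loci went the other way in replicate 3: alpha segments stood at 23.3 in F4/80high (12.4 and 13.3 in batch 1) and 15.3 in F4/80low (10.6 and 12.4), and in F4/80low the kappa segments stood at 50 (22 and 25.4) from 6 variable counts and the gamma segments at 35.3 (10.8 and 12.6) from 12. As a share of all Ig counts, the variable segments of F4/80high replicate 3 held 0.664% with an exact 95% binomial interval from 0.137% to 1.93%, below the interval of F4/80high replicate 2 (7.47%, from 6.93% to 8.04%). Intervals here cover counting error only.

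The heavy-chain constant genes lie together on chromosome 12 of GRCm38 and are read from the minus strand. Ighm, the constant segment of IgM (113418558 to 113422730), was the most abundant of them per length in every library. It held 8547, 5215 and 400 counts in F4/80high against 6912, 7419 and 286 counts in F4/80low, or 117 ± 86.5 and 125 ± 83.5 CPM (SD, n = 3 each). The subsets overlapped, with a log2 fold change of 0.04 (SE 0.30, edgeR adjusted p = 0.992). Ighd, the constant segment of IgD just downstream of Ighm (113406604 to 113416324), held 1136, 1217 and 1 counts in F4/80high against 600, 1174 and 22 in F4/80low. Per 100 Ighm counts this is 13.3, 23.3 and 0.25 in F4/80high against 8.68, 15.8 and 7.69 in F4/80low.

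The IgG constant genes are shown by their first 72 bases, at the start of the first constant domain, because Ighg1, the member with the smallest p, resembles its neighbours. Capitals mark the bases that differ from Ighg1 at the same position, and the sequences are of the minus strand, from the GENCODE M21 transcripts (GRCm38).
Ighg1 (chr12:113330452-113330523): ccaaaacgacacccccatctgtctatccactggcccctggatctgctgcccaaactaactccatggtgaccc
Ighg2b (chr12:113307862-113307933): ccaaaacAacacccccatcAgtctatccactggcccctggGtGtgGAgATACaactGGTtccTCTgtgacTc
Ighg2c (chr12:113288861-113288932): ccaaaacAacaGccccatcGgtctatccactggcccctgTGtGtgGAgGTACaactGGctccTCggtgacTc
Ighg3 (chr12:113361161-113361232): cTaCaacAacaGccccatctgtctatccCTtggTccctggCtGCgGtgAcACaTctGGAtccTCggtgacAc
Within these windows Ighg2b and Ighg2c each differ from Ighg1 at 17 positions and Ighg3 at 21. The longest run that Ighg1 shares with Ighg2b in the transcripts compared is 37 bases, and the longest that Ighg2b shares with Ighg2c is 78 bases, and how the authors' counting treated reads that match several genes is not given in the sources used here.

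Ighg1 (ENSMUSG00000076614, chromosome 12 from 113325240 to 113330523) encodes the constant part of the IgG1 heavy chain and was lower in F4/80high TAMs in 3 of 3 replicate pairs. It held 61, 108 and 11 counts in F4/80high against 745, 1596 and 27 counts in F4/80low, which is 1.5, 2.09 and 1.07 CPM against 18.1, 38.3 and 2.71 CPM. All 3 F4/80high libraries lay below all 3 F4/80low libraries, as did 3.01% of all genes. The log2 fold change was -3.31 (SE 0.63, unadjusted p = 0.000666, edgeR adjusted p = 0.661 with batch), and the log2 ratio was -3.58, -4.19 and -1.30 in the 3 pairs. The edgeR adjusted p was 0.0781 with the replicate block, and DESeq2 gave 0.000131 with batch and 2.39e-06 with the block. Over all alternatives the log2 fold change ran from -3.97 to -2.62, and the edgeR adjusted p from 0.0781 to 1.00.

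None of the other switched isotypes was lower in all 3 pairs. Ighg2c (113285325 to 113288932), the IgG2c gene of the C57Bl/6 strain, held 1060, 0 and 0 counts in F4/80high against 919, 369 and 0 counts in F4/80low. In pair 1 its level was nearly equal in the subsets (26.0 and 22.3 CPM), while in pair 2 it was at least 153-fold lower in F4/80high, taking the floor of 3 counts in that library. Ighg2b (113302965 to 113307933) held 681, 0 and 0 counts against 463, 136 and 0, so it was at least 56.4-fold lower in F4/80high in pair 2 by the same floor. These zeros stand in F4/80high replicate 2, the deepest library, and the bounds rest on 1 library each. Igha, the constant segment of IgA, the mucosal class, held 58, 20 and 0 counts in F4/80high against 19, 583 and 0 in F4/80low. Ighg3 held 18, 0 and 4 counts against 1, 0 and 0. None of the 4 passed the test, with edgeR adjusted p from 0.758 to 0.992.

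Taken as a share of all heavy-chain constant counts, the switched genes (the 4 Ighg genes and Igha) held 16.2%, 1.95% and 3.61% in F4/80high against 22.2%, 23.8% and 8.06% in F4/80low. The exact 95% binomial intervals of the libraries within a pair did not meet in pair 1 (15.6% to 16.9% against 21.4% to 23.1%) or pair 2 (1.63% to 2.32% against 23.0% to 24.6%), and met in pair 3 (2.03% to 5.88% against 5.38% to 11.5%). Among the IgG counts, Ighg1 made up 3.35% in F4/80high and 35.0% in F4/80low replicate 1, 100% and 76.0% in replicate 2, and 73.3% and 100% in replicate 3, where the totals were only 15 and 27 counts. The switched share was lower in the F4/80high library of each pair, but it contains Ighg1, and the other switched genes did not all follow. In pair 1 Ighg2c held 9.17% in F4/80high against 9.51% in F4/80low, and Ighg2b held 5.89% against 4.79%. In pair 3 Ighg3 was the only other switched gene with counts, at 0.962% in F4/80high against 0.0% in F4/80low. Ighg1 itself made up 0.528%, 1.65% and 2.64% of the heavy-chain constant counts in F4/80high against 7.71%, 14.2% and 8.06% in F4/80low.

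**Figure D3:**
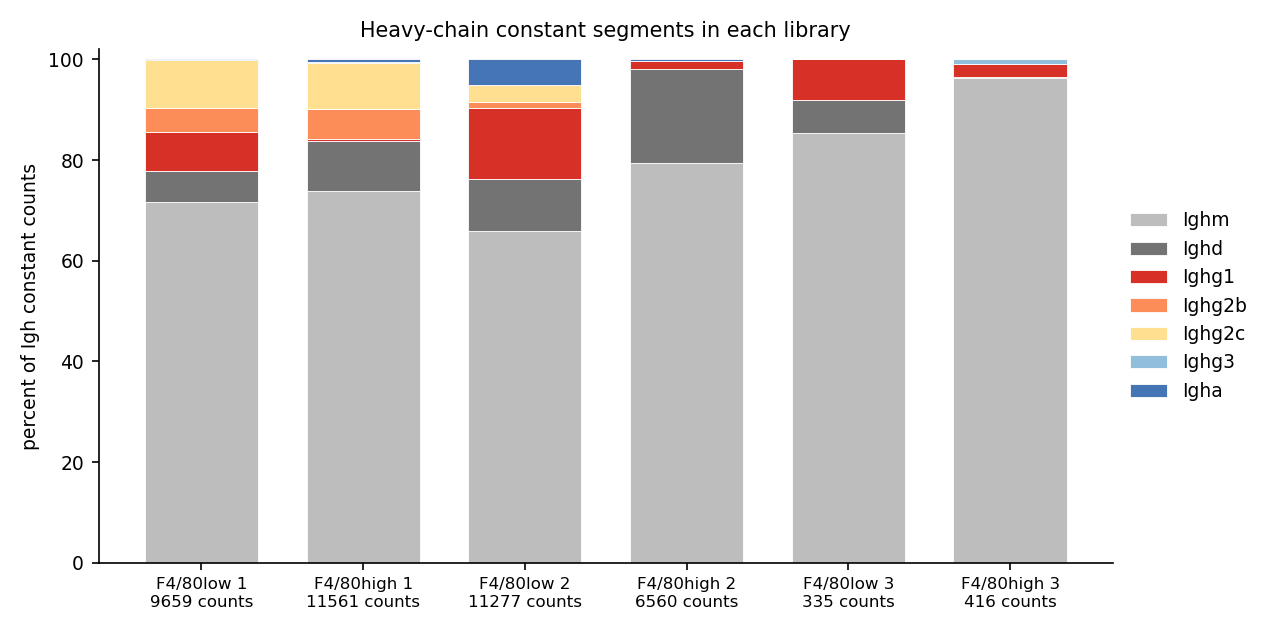
Share of each heavy-chain constant gene in the Igh constant counts of each library, in percent, with the libraries of each replicate pair side by side and their totals below. Ighm takes 65.8% to 96.2% of the counts, Ighg2c and Ighg2b are seen in both libraries of pair 1 and in F4/80low replicate 2, and Ighg1 is the larger share in F4/80low in every pair.

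No light-chain constant gene passed the test. Igkc (chromosome 6 from 70726435 to 70726966), the only kappa constant gene, held 3744, 1440 and 22 counts in F4/80high against 2519, 4120 and 12 in F4/80low (log2 fold change -0.16, SE 0.49, edgeR adjusted p = 0.971). The 3 lambda constant genes on chromosome 16 are minor in the mouse. Iglc2 held 312, 127 and 3 counts in F4/80high against 109, 285 and 2 in F4/80low, Iglc1 held 97, 34 and 3 against 53, 221 and 0, and Iglc3 held 168, 35 and 5 against 60, 93 and 0. Each of the 4 was higher in F4/80high in pairs 1 and 3 and lower in pair 2. Per length, Igkc made up 86.5% and 88.3% of the light-chain constant signal in batch 1 of F4/80high and 91.7% and 87.0% in batch 1 of F4/80low. Iglc2 and Iglc3 share a run of 79 bases, and an antisense gene with 16 counts in all overlaps Iglc3.

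The V segments are shown by their last 48 bases, where the cysteine that anchors the antigen-binding loop is encoded, for the 2 V members with the most counts in each locus. Capitals mark the cysteine codon (TGT or TGC) that follows a tyrosine codon (TAT or TAC) and 1 codon for tyrosine, phenylalanine, histidine, leucine or isoleucine, read on the coding strand.
Ighv1-76 (chr12:115847881-115847928, minus strand): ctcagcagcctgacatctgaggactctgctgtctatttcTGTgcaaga
Ighv5-17 (chr12:113859149-113859196, minus strand): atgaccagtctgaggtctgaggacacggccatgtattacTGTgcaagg
Igkv1-110 (chr6:68271220-68271267, plus strand): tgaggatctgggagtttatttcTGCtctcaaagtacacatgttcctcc
Igkv14-111 (chr6:68256822-68256869, plus strand): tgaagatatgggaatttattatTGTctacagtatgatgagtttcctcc
Iglv1 (chr16:19085017-19085064, minus strand): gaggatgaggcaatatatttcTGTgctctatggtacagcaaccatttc
Iglv3 (chr16:19241207-19241254, minus strand): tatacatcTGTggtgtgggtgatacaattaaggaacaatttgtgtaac
Trav13-1 (chr14:53545478-53545525, plus strand): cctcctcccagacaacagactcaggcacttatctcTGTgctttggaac
Trav17 (chr14:53807068-53807115, plus strand): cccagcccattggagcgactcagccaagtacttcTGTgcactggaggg
Trbv17 (chr6:41163509-41163556, plus strand): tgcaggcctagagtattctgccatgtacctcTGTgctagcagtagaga
Trbv13-2 (chr6:41121785-41121832, plus strand): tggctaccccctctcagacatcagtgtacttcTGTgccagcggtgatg
Trdv4 (chr14:54075468-54075515, plus strand): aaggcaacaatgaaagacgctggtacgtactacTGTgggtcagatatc
Trdv2-2 (chr14:53961555-53961602, plus strand): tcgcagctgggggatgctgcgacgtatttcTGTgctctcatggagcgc
Trgv2 (chr13:19336573-19336620, minus strand): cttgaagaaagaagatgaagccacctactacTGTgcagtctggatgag
Tcrg-V1 (chr13:19340407-19340454, plus strand): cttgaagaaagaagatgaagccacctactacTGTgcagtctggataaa
This pattern was found in the last 48 bases of 157 of the 160 V members and of 2.12% of all M21 transcripts. Segments of a family resemble each other: 122 of the 160 V members share at least 1 stretch of 50 bases with another segment gene, and in 30 of them such stretches make up 50% or more of the sequence, so the counts of single V segments are uncertain. Trbv17, Trdv4, Trav17 and Igkv14-111 share no such stretch.

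In the 4 libraries of batch 1, each had another leader among the heavy-chain and among the kappa V segments. Ighv1-76 led in F4/80high replicate 1 with 68 of 349 counts on heavy-chain V members (19.5%, exact 95% interval 15.5% to 24.0%), and Ighv6-3 led in F4/80high replicate 2 with 74 of 211 (35.1%, interval 28.6% to 41.9%). In F4/80low the leaders were Ighv5-17 in replicate 1 (45 of 328) and Ighv1-82 in replicate 2 (47 of 369). Ighv6-3 had 3, 3 and 4 counts in F4/80high replicate 1 and F4/80low replicates 1 and 2, and none in replicate 3. Among the kappa V segments, Igkv6-25 led in F4/80high replicate 1 (108 of 813 counts, 13.3%), Igkv1-110 in F4/80high replicate 2 (106 of 342, 31.0%, interval 26.1% to 36.2%), Igkv14-111 in F4/80low replicate 1 (82 of 549, 14.9%) and Igkv4-57 in F4/80low replicate 2 (103 of 1043, 9.88%). The number of heavy-chain V members with counts was 28 to 31 of 34 in these 4 libraries, and of kappa V members 40 to 47 of 48.

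Of the Ig variable members, 34 had a positive and 56 a negative log2 fold change (median -0.56), and 2 had an unadjusted p under 0.05, Ighv7-1 with 0 counts in F4/80high against 16, 23 and 0 in F4/80low, and Igkv4-61 with 0 counts in F4/80high against 41, 3 and 0 in F4/80low. Neither passed after adjustment (edgeR adjusted p = 0.697 and 0.737). In replicate 3, the heavy-chain V members held 0 counts in F4/80high and 3 in F4/80low, and the kappa V members held 2 and 6. At that depth no comparison of Ig V segments was possible in pair 3. The lambda V members Iglv1, Iglv3 and Iglv2 had 0 counts in both libraries of replicate 3, and in batch 1 Iglv1 led in 3 of 4 libraries (59.4%, 64.9% and 59.4% of lambda V counts) and Iglv3 in F4/80high replicate 2 (43.0%).

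Trac, Trbc1 and Trbc2 are the constant segments of the alpha and beta chains, which form the receptor of most T cells. Trac (chromosome 14 from 54220521 to 54224206) held 9492, 3587 and 520 counts in F4/80high against 3379, 4962 and 287 in F4/80low, and had the highest level per length of all members in F4/80high replicate 1, at 249 CPM per kb. The fitted log2 fold change, 0.66 with an SE of 0.41, did not pass (edgeR adjusted p = 0.774). Trbc1 (chromosome 6 from 41538218 to 41539881) held 3383, 1251 and 232 counts against 1185, 1601 and 88 (log2 fold change 0.89, SE 0.44, edgeR adjusted p = 0.758). Trbc2 held 4075, 1583 and 299 against 1355, 2076 and 131 (log2 fold change 0.81, SE 0.42, edgeR adjusted p = 0.760). All 3 were higher in F4/80high in pairs 1 and 3 and lower in pair 2. Trbc1 and Trbc2 are identical over the first 259 bases, so their split is uncertain. The share of Trbc1 in their counts stayed between 40.2% and 46.7% in the 6 libraries.

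The beta D and J segments are shown because their reads fell mostly on 1 of the 2 clusters. Each beta locus cluster holds a D segment, a row of J segments and a constant gene. The J segments are printed from the plus strand over the length of an M21 transcript, which for Trbj1-3 covers the first 50 of its 54 bases, with capitals on the codons of the phenylalanine-glycine-any-glycine motif (TTT or TTC, then GGN, any codon and GGN again, searched on the coding strand), which 33 of the 43 J members and 0.298% of all M21 transcripts hold in their last 48 bases.
Trbd1 (chr6:41533201-41533212): gggacagggggc
Trbj1-1 (chr6:41533864-41533911): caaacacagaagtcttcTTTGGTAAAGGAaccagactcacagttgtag
Trbj1-2 (chr6:41534001-41534048): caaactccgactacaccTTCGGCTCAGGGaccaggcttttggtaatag
Trbj1-3 (chr6:41534323-41534372): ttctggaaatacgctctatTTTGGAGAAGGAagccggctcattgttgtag
Trbj1-4 (chr6:41534811-41534861): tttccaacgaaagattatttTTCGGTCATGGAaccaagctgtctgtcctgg
Trbj2-1 (chr6:41542754-41542803): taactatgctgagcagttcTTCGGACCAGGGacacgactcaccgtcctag
Trbj2-7 (chr6:41543810-41543856): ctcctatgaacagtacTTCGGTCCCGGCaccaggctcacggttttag
Traj17 (chr14:54201775-54201837): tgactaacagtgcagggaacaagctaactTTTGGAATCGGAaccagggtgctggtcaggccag
Traj19 (chr14:54200386-54200446): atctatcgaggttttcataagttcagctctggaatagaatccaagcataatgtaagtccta
Traj17 and Traj19 are the alpha J members with the most counts, and Traj19 holds no such motif.

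The 7 J segments of cluster 1 held 760, 182 and 6 counts in F4/80high against 320, 153 and 1 in F4/80low, and the 5 of cluster 2 held 61, 18 and 3 against 25, 23 and 0. Cluster 1 made up 92.6% and 91% of the beta J counts in batch 1 of F4/80high and 92.8% and 86.9% in batch 1 of F4/80low, although Trbc2, the constant gene behind cluster 2, had the higher level per length of the 2 constant genes in every library. Trbj1-1 alone held 253, 54 and 2 counts in F4/80high against 100, 40 and 0 in F4/80low with the higher level in F4/80high in each of the 3 pairs, though in pair 2 only by a log2 ratio of 0.11. The fitted log2 fold change, 1.36 with an SE of 0.96, did not pass (edgeR adjusted p = 0.812). Trbd1, a D segment of 12 bases, held 55, 7 and 1 counts against 25, 8 and 0. The read length is not given in the sources used here. Where reads are longer than these segments, the counts are of reads that reach into flanking sequence or a joined segment. A level per length would then be inflated for them.

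**Figure D4:**
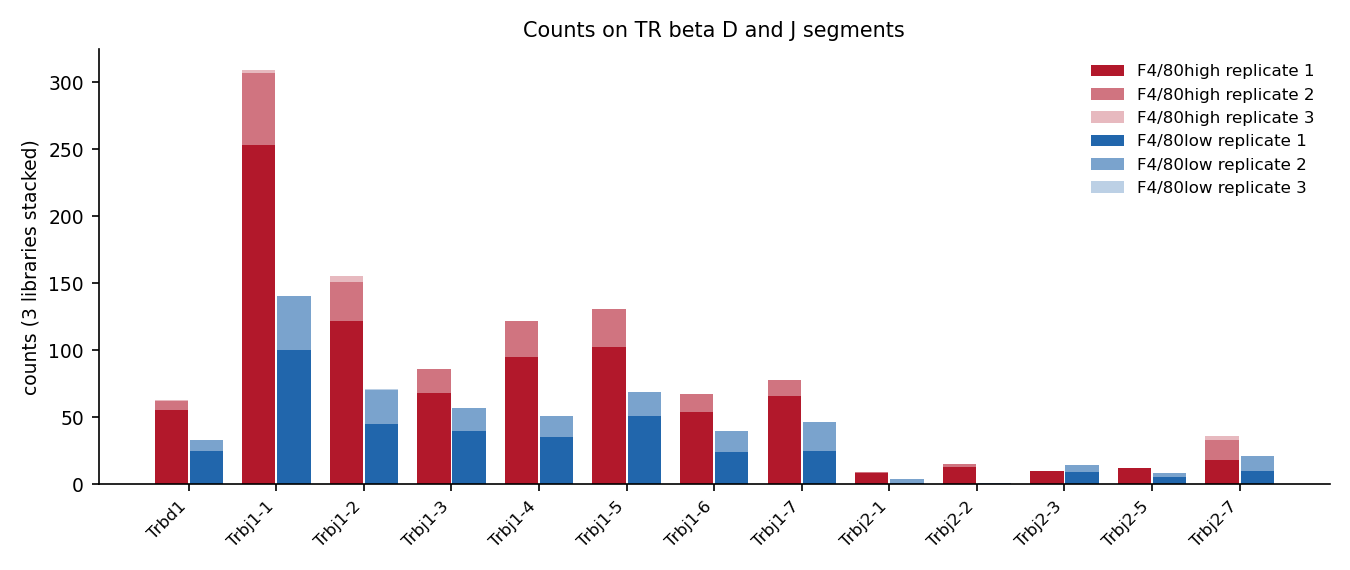
Counts on the beta D and J segments, with the 3 libraries of each subset stacked (F4/80high in red, F4/80low in blue, replicate 1 darkest). Trbj1-1 holds the most counts in both subsets, and each segment of cluster 1 stands above every segment of cluster 2.

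All 18 beta V members had counts in each of the 4 libraries of batch 1. Trbv17 was the leader in F4/80high replicates 1 and 2 (14.7% of beta V counts in each, exact 95% intervals 13.1% to 16.5% and 12.2% to 17.5%) and in F4/80low replicate 2 (13.2%), with Trbv12-2 ahead in F4/80low replicate 1 (12.5%). In F4/80high replicate 3 Trbv2 held 26 of 72 counts (36.1%, interval 25.1% to 48.3%). Trbv17 (chromosome 6 from 41163062 to 41163556) held 250, 103 and 8 counts in F4/80high against 69, 121 and 1 in F4/80low (log2 fold change 1.23, SE 0.74, edgeR adjusted p = 0.769). Trbv17, Trbv13-2, Trbv19 and Trbv12-2 showed the same order, higher in F4/80high in pairs 1 and 3 and lower in pair 2, and the last 3 had log2 fold changes of 0.97, 0.26 and 0.68 with edgeR adjusted p from 0.851 to 0.966.

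The alpha V and J segments held few counts each. The 51 alpha V members summed to 735, 369 and 20 counts in F4/80high against 270, 400 and 17 in F4/80low, and none held more than 9% of them in F4/80high replicates 1 and 2, where Trav13-1 (5.44%) and Trav4n-4 (8.94%) led. In F4/80low replicate 2 Trav17 led with 13.2%. Trav13-1, Trav9-2 and Trav14-3 were higher in F4/80high in 3 of 3 pairs, with log2 fold changes of 1.13, 1.14 and 1.92, and none passed (edgeR adjusted p = 0.885, 0.900 and 0.797). In pair 3 these rest on 2, 1 and 1 counts against 0. The 25 alpha J members summed to 440, 107 and 101 counts in F4/80high against 88, 214 and 27 in F4/80low. Per 100 alpha V counts this is 59.9, 29.0 and 505 in F4/80high against 32.6, 53.5 and 159 in F4/80low, so in replicate 3 the J segments outnumbered the V segments. Traj17 to Traj21, which neighbour each other, held 371 of the 977 alpha J counts.

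Trdc and the Tcrg-C genes are the constant segments of gamma-delta T cells. The gamma constant genes are shown by their first 72 bases, since Tcrg-C1, Tcrg-C2 and Tcrg-C3 are near copies here, and Tcrg-C4 is the TR constant gene that was higher in F4/80high in every pair. Capitals mark bases that differ from Tcrg-C1.
Tcrg-C1 (chr13:19214103-19214174, plus strand): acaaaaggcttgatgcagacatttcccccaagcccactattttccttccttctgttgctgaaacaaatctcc
Tcrg-C2 (chr13:19307480-19307551, minus strand): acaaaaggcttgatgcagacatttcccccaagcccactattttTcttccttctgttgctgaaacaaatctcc
Tcrg-C3 (chr13:19260885-19260956, plus strand): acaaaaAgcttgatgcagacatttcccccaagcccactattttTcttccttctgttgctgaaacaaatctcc
Tcrg-C4 (chr13:19344558-19344629, plus strand): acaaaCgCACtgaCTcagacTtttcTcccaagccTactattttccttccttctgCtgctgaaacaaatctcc
Tcrg-C2 and Tcrg-C3 differ from Tcrg-C1 at 1 and 2 positions of this window and Tcrg-C4 at 10. Tcrg-C1 shares runs of 104 bases with Tcrg-C2 and 122 with Tcrg-C3, while its longest run shared with Tcrg-C4 is 29 bases, and Tcrg-C4 shares no stretch of 50 bases with another segment gene.

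Tcrg-C4 (ENSMUSG00000076757, chromosome 13 from 19344558 to 19352756) held 360, 175 and 49 counts in F4/80high against 134, 114 and 7 in F4/80low, or 8.84, 3.38 and 4.78 CPM against 3.25, 2.74 and 0.704 CPM. Every F4/80high library lay above every F4/80low library. The same held for 5 members in all, against 2.25% of all genes, and the other 4 (Traj20, Traj11, Trav5-4 and Trbj2-7, named after their values were seen) had at most 57 counts each. The log2 fold change of Tcrg-C4 was 1.52 (SE 0.60, unadjusted p = 0.0348, edgeR adjusted p = 0.737, and 0.604 with the replicate block), and it ran from 1.03 to 1.97 when each library was left out. Tcrg-C2, which held the most gamma constant counts in 5 of 6 libraries (Tcrg-C4 did in F4/80high replicate 3), had 774, 420 and 40 counts in F4/80high against 193, 356 and 22 in F4/80low (log2 fold change 0.97, SE 0.46, edgeR adjusted p = 0.758). Tcrg-C1 held 113, 52 and 39 counts against 89, 70 and 0, and Tcrg-C3 held 23, 5 and 3 against 2, 0 and 5.

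Trdc (chromosome 14 from 54142851 to 54148868) held 522, 125 and 71 counts in F4/80high against 172, 140 and 9 in F4/80low (log2 fold change 1.56, SE 0.71, edgeR adjusted p = 0.758). An antisense gene with 18 counts overlaps it. Per 100 Trac counts, Trdc stood at 5.50, 3.48 and 13.7 in F4/80high against 5.09, 2.82 and 3.14 in F4/80low. As a share of Trac and Trdc counts together, the exact 95% intervals of Trdc met in pair 1 (4.79% to 5.67% in F4/80high, 4.16% to 5.60% in F4/80low) and in pair 2 (2.81% to 4.0% and 2.31% to 3.23%), and did not meet in pair 3 (9.50% to 14.9% and 1.40% to 5.69%). Trdv4 held 378 of the 428 delta V counts, with 249, 27 and 0 in F4/80high against 73, 29 and 0 in F4/80low. Trgv2 held 246 of the 344 gamma V counts, with 109, 53 and 4 against 19, 51 and 10. The other V members of these loci, Trdv2-2, Trdv1, Tcrg-V1 and Tcrg-V4, held 29, 21, 62 and 36 counts in all.

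Macrophage and lymphocyte markers were both present. The defining macrophage genes Adgre1, Csf1r, Cd68 and Itgam had at least 1608 counts in every library. The 7 genes of the macrophage list summed to 2900, 4940 and 3660 CPM in F4/80high against 3560, 3140 and 4000 CPM in F4/80low. This list holds Ptprc, the gene of CD45, on which both subsets were sorted. Ptprc alone stood at 943, 690 and 1850 CPM in F4/80high against 1110, 743 and 2580 CPM in F4/80low. The 19 T cell markers (none at 0 in any library) summed to 1570, 558 and 526 CPM in F4/80high against 624, 766 and 226 CPM in F4/80low, with log2 ratios of 1.33, -0.46 and 1.22 in the 3 pairs. All 19 had a positive log2 fold change (median 0.80), 0 were called, and 4 had a p below 0.05 before adjustment (6.59% of all genes). They include Cd3e, which the sorting panel names, at 6458, 3048 and 321 counts in F4/80high against 2091, 2797 and 128 in F4/80low. TR constant counts per 100 T cell marker counts stayed between 23.2 and 29.2 in the 6 libraries.

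The 14 B cell markers, of which Cr2 and Fcer2a were at 0 in F4/80low replicate 3 and none elsewhere, summed to 248, 123 and 35.7 CPM in F4/80high against 177, 270 and 59.3 CPM in F4/80low, with log2 ratios of 0.49, -1.13 and -0.73. In replicate 3 Bank1 and Ebf1 held 211 of 366 counts in F4/80high and 438 of 590 in F4/80low. Without these genes, a choice made after seeing the values, the log2 ratios of the other 12 markers were 0.74, -0.96 and -0.02. Of the 14 markers 4 had a positive and 10 a negative log2 fold change (median -0.17). None was called, and 1, Bank1, had a p below 0.05 before adjustment (6.59% of all genes). Ig constant counts per 100 B cell marker counts were 157, 129 and 123 in F4/80high against 170, 142 and 59.2 in F4/80low, and per 100 counts of those 12 markers they were 200.0, 175 and 290.0 against 257, 218 and 230.0. The 10 plasma cell markers tested summed to 257 to 541 CPM in F4/80high and 306 to 633 CPM in F4/80low, and most of that is Xbp1 and Txndc5, which secretory and myeloid cells use too. Jchain, which joins IgM and IgA into polymers, held 329, 29 and 12 counts in F4/80high against 243, 411 and 0 in F4/80low, and Mzb1 held 182, 99 and 0 against 114, 109 and 0. The 9 markers of NK and gamma-delta T cells summed to 200, 30.2 and 34.5 CPM in F4/80high against 86.2, 50.3 and 21.7 CPM in F4/80low. The part of T, B, plasma and NK cells in the Ig and TR values was not tested.

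**Figure D5:**
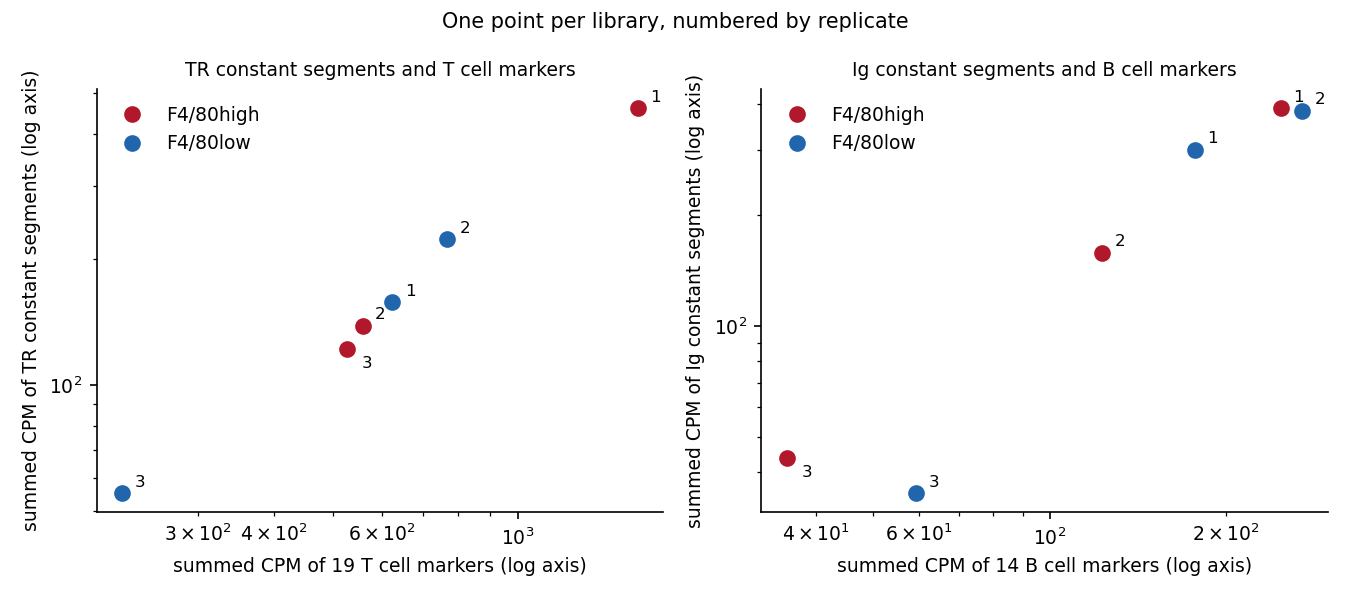
Summed CPM of the TR constant segments against the T cell markers (left) and of the Ig constant segments against the B cell markers (right), on log axes, with 1 point per library numbered by replicate. F4/80high replicate 1 is highest for T cell markers and TR constant segments, and F4/80low replicate 3 is lowest for both.

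Granulocyte markers lay on the other side. All 8 neutrophil markers (median log2 fold change -1.26), all 7 eosinophil markers (-1.63) and all 7 mast cell and basophil markers (-0.96) had negative fold changes. edgeR with batch called none of their members, and DESeq2 with batch called 3, 3 and 0 (0.813% of all genes). In edgeR with batch 6, 5 and 1 of their members had an unadjusted p under 0.05 (6.59% of all genes). Of the 7 dendritic cell markers, 1 was positive and 6 were negative (median -0.74). Of the 7 melanoma markers listed, 4 had a row, and the 3 tested had positive values (median 0.26). Of these, Pmel at 0.03 (SE 0.81) and Sox10 at 0.26 (SE 0.96) showed no clear direction, and Mitf stood at 0.66 (SE 0.22). Mitf held 5215 counts over all libraries against 251 for Pmel, 131 for Sox10 and 1 for Mlana. The part of tumor cells in these values was not tested.

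The chains that signal from the receptors at the cell surface did not pass the test. Cd79a and Cd79b, the signalling chains of the B cell receptor, held 2081, 1259 and 17 and 935, 859 and 48 counts in F4/80high and 1179, 2139 and 36 and 576, 981 and 11 in F4/80low (log2 fold changes -0.35 and 0.59, edgeR adjusted p = 0.913 and 0.833). Cd3d, Cd3e, Cd3g and Cd247, the signalling chains of the T cell receptor, had log2 fold changes of 0.91, 1.01, 1.00 and 0.63 (edgeR adjusted p from 0.700 to 0.816), and all 4 were higher in F4/80high in 2 of 3 pairs. In the list of the T cell receptor complex and its signalling, 14 of 15 genes were positive (median 0.74) and 0 were called. An unadjusted p below 0.05 was reached by 4 of them (6.59% of all genes). The smallest p among them were those of Cd3e, Cd8a and Lck, and the 1 negative gene was the adaptor Lcp2 (log2 fold change -0.19), which macrophages express too.

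The list of B cell receptor signalling split. Of its 16 genes, 7 were positive and 9 negative (median -0.03). edgeR with batch called 0 and DESeq2 with batch 2 (0.813% of all genes), and 6 had an unadjusted edgeR p under 0.05 (6.59% of all genes). Blnk, an adaptor of the B cell receptor that myeloid cells share, held 1481, 3793 and 468 counts in F4/80high against 546, 1244 and 72 in F4/80low (log2 fold change 1.75, SE 0.45, edgeR adjusted p = 0.661, DESeq2 adjusted p = 0.0220). Cd72, an inhibitory coreceptor, had a log2 fold change of 1.05 (edgeR adjusted p = 0.661, DESeq2 adjusted p = 0.0426). The kinases Btk (log2 fold change -0.78) and Syk (-0.76), the scaffold Bank1 (-0.96), Dapp1 (-0.48) and Ptpn6 (-0.11) were lower in F4/80high in 3 of 3 pairs. These 5 had edgeR adjusted p from 0.661 to 0.945, and 14.3% of all genes were lower in this way. Blnk, Cd72 and Fcgr2b were the genes of the list that were higher in F4/80high in 3 of 3 pairs, as were 14.7% of all genes.

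Genes of receptor assembly gave no call. Of 12 genes of V(D)J recombination, class switching and hypermutation tested, 5 were positive and 7 negative (median -0.02). Of these 0 were called, and 0 had a p below 0.05 before adjustment (6.59% of all genes). Dntt, which adds bases at the joints, held 50, 0 and 3 counts in F4/80high against 11, 82 and 5 in F4/80low. Rag1 and Rag2, which belong to the same list, had no row in the deposited tables and so have no value. Of the 10 receptors that bind Ig, 7 were positive and 3 negative (median 0.20) with 0 called and 0 at an unadjusted p under 0.05, led by Fcgrt, the neonatal Fc receptor (log2 fold change 0.95, edgeR adjusted p = 0.758) and Fcgr2b, the inhibitory IgG receptor (0.70, edgeR adjusted p = 0.758). Of the 4 genes tested among the partners of the surrogate light chain and the pre-T receptor, 2 were positive and 2 negative, with 0 called.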

How the data were processed

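RNA was measured by poly-A RNA-seq in 6 libraries, 3 of each TAM subset. The authors deposited, for each library, raw read counts per gene with the gene's length and biotype, with no normalization. The aligner, counting rule, use of strand and annotation are not given in the sources used here, so reads that match several segments may be split or dropped. Members and lists were chosen with earlier results of these data known. Genes whose counts came to 10 or more in all were tested in R 4.3.3 with edgeR 4.0.16 (quasi-likelihood, TMM, terms for batch and subset, Benjamini-Hochberg over all genes). Batch was read from the study's PCA plot. DESeq2 1.42.0 and a replicate block were alternatives, and DESeq2 with the block was added after seeing the data. The methods give independent experiments, so same-numbered libraries were taken as pairs, and over 10428 genes their deviations from the mean of the subset had correlations of 0.752, 0.739 and 0.913. Pair ratios of single genes add 0.5 counts. Intervals are exact binomial (95%) and cover counting error only. P-values measure the spread between pools of tumors. Tcrg-V4, typed as a lambda V gene in the tables, was put with the gamma locus, and B230359F08Rik with alpha V, after GENCODE M21 (GRCm38), from whose transcripts all sequences and coordinates come. The rule for names took every constant member, the 5 V, D or J members with most counts per locus, and the 5 members in each direction with the largest fold change among those with 60 or more counts and 1 direction in all pairs. Other members, such as V segments that led in a library, were named after their values were seen. The steps were tested on simulated data.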

Additional observations from a re-analysis of the deposited data

Results flagged for a closer look

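Segment rows whose biotype names a pseudogene were kept out of every comparison, and they held counts too. The 18 such rows held 108, 24 and 38 counts in the F4/80high libraries of replicates 1, 2 and 3, and 44, 72 and 5 counts in the F4/80low ones. In pairs 1 and 3 the F4/80high library was higher and in pair 2 the F4/80low library, without a test. Of their 291 counts 125 lay on Traj8, 47 on Trbv24 and 41 on Trbj2-6, and of the 23 on Trav9n-1, 19 were in F4/80high replicate 3. Groups of 3 libraries are too small for the test for a single distant sample.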

How the results depend on the processing

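Over all genes the count of calls was 0 with edgeR and batch, 27 with the replicate block, 163 with DESeq2 and 362 with DESeq2 and the replicate block, and among segment genes it was 0, 0, 1 and 1. The segment gene called was Ighg1 in both DESeq2 fits, which gave no adjusted p for many members with few counts. The block changed no other call of a segment gene. The 4 class ratios moved by less than 1 SD between pairs under every alternative run, and without single libraries they ranged from -0.49 to 0.25 for Ig constant, -1.32 to -0.56 for Ig variable, 0.24 to 1.23 for TR constant and 0.43 to 1.52 for TR variable.

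Of the 51 named members, 24 kept the sign of their log2 fold change in every fit that gave a value and 27 did not, and none of these 27 had passed the test. With the replicate block the sign turned for Ighm (-0.02), Ighg2b (-2.43), Ighv1-76 (-1.37) and Iglv2 (0.39). With DESeq2 and the block it turned for Ighm (-0.03), Ighg2b (-1.46), Ighv1-76 (-1.11), Ighv9-3 (-0.0), Iglc1 (0.12) and Iglv2 (0.32). With no batch term it turned for Ighm (-0.10), Ighd (0.19) and Trav4-4-dv10 (-0.37), and without replicate 3 of both subsets for Ighm (-0.16), Ighd (0.26), Trav4-4-dv10 (-0.66), Tcrg-C1 (-0.03) and Tcrg-V4 (0.05).

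Leaving out each library in turn, the log2 fold change ran from -0.26 to 0.31 for Ighm, -1.07 to 0.26 for Ighd, -11.64 to 0.72 for Ighg2c, -10.52 to 1.34 for Ighg2b and -4.19 to 0.93 for Igha. Among heavy-chain V segments it ran from -6.60 to 1.70 for Ighv1-76, -0.19 to 3.94 for Ighv6-3, -3.29 to 0.50 for Ighv1-82 and -1.98 to 1.89 for Ighv9-3. In the light chains it ran from -0.82 to 0.34 for Igkc, -1.22 to 1.92 for Igkv1-110, -3.74 to 4.03 for Igkv6-25, -1.42 to 0.04 for Igkv1-135, -0.55 to 0.82 for Iglc2, -1.12 to 1.02 for Iglc1, -1.23 to 0.75 for Iglv1, -0.32 to 1.44 for Iglv3 and -1.07 to 1.99 for Iglv2. In the TR loci it ran from -1.82 to 0.12 for Trav17, -0.66 to 1.13 for Trav4-4-dv10, -0.04 to 0.54 for Trbv19, -1.21 to 2.27 for Trdv4, -0.30 to 1.99 for Trdv2-2, -0.03 to 2.22 for Tcrg-C1, -0.32 to 1.13 for Trgv2, -1.16 to 2.12 for Tcrg-V1 and -1.57 to 0.06 for Tcrg-V4. The cause was not tested. Some named members fell under the count filter in filterByExpr or when a library was left out, and have no value there.

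Depth limits the V, D and J segments most: 65 of the 204 variable members had 60 or more counts over all libraries, against 17 of the 19 constant members.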

Other observations

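Segment genes that stayed under the minimum of 10 counts numbered 75, of which 71 had a count. They held 149, 43 and 6 counts in F4/80high against 60, 71 and 0 in F4/80low, in the order of replicates 1, 2 and 3, so the same pairs stood higher and lower as for the members.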
